A study of Homo sapiens with 26 samples.

Results

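Translation initiation factors are the proteins that bring the initiator tRNA and an mRNA to the small ribosomal subunit, scan for the start codon and let the large subunit join. The set described here holds 40 transcripts of 12325 with counts. Membership was set by gene symbol, with earlier results of these data known. The symbol begins with EIF followed by a digit from 1 to 6. The elongation factors EIF5A and EIF5A2, the cap-binding homolog EIF4E2 and the EIF2AK kinases were left out. All samples were Huh7, a human hepatocellular carcinoma line. In the first study, cells received PF-06446846 at 1.5 or 0.3 µM, or the DMSO vehicle, and were lysed after 10 or 60 min, with 3 ribosome profiling (ribo-seq) libraries in each group. In the second study, the compound at 1.5 µM was compared with vehicle after 60 min, with 2 ribo-seq and 2 mRNA-seq libraries in each group, both kinds made from the same cultures. Ribo-seq counts the mRNA fragments that ribosomes cover (footprints). PF-06446846 is a small molecule that stalls ribosomes on a few nascent chains.

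Initiation runs through a chain of complexes. eIF2, a trimer of α (EIF2S1), β (EIF2S2) and γ (EIF2S3), carries the initiator tRNA with GTP, and eIF2B, encoded in part by EIF2B1 to EIF2B4, exchanges the GDP that eIF2 is left with for GTP. eIF1 and eIF1A keep the scanning ribosome open, eIF5 triggers GTP hydrolysis on eIF2 and eIF5B joins the subunits. eIF3 is the large scaffold on the small subunit, and eIF4F, made of the cap-binding EIF4E, the scaffold EIF4G1 and the helicase EIF4A1, recruits the mRNA and is held in check by the 4E-binding proteins EIF4EBP1 and EIF4EBP2.

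The CDS of the 26 libraries held between 6414227 and 22224137 reads. The hepatocyte markers on the list that were counted (APOA1, APOB, AFP, TTR, SERPINA1, FGB and TF) lay at percentiles 95.9 to 99.9 of footprint level in vehicle at 60 min. Of the markers of other cells, PECAM1 lay at percentile 37.0, CD68 at 75.0 and EPCAM at 87.2, and the rest of that list was not analysed here.

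The start codons of the factors themselves are shown because they are the sites these proteins select. Each window below holds 9 bases before the start codon, the start codon in capitals and 6 bases after it, read from GENCODE transcripts on GRCh38. EIF1, EIF1B and EIF3B lack both a purine at position -3 and a G at +4 (the first base of the start codon is +1), EIF3J and EIF5B have both, and EIF4G2 begins with GTG.
EIF1: tcgtatcgtATGtccgct
EIF1B: tagtatcgcATGtccact
EIF3B: gttgggcccATGcaggac
EIF3J: cggctcgagATGgcggcg
EIF5B: tgacaagcaATGgggaag
EIF4G2: gccgccaaaGTGgagagt

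The windows lie at chr17:41689030-41689047 (EIF1, + strand, exon 1), chr3:40309933-40309950 (EIF1B, +, exon 1), chr7:2354913-2354930 (EIF3B, +, exon 1), chr15:44537186-44537203 (EIF3J, +, exon 1), chr2:99337546-99337563 (EIF5B, +, exon 1) and chr11:10807287-10807304 (EIF4G2, - strand, exon 2), each across the border of the 5′ UTR and the coding sequence. Among 37 factors with an ATG and 9 bases before it, 33 had A or G at -3, 14 had that purine and G at +4, and 3 had neither. Among 10590 transcripts with an ATG, 85.3% had the purine, 45.0% had both and 6.98% had neither. EIF1, the factor known to make scanning ribosomes reject poor contexts, and its paralog EIF1B were among the 3 with neither.

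Several counted transcripts do not stand for the whole protein. The transcript counted for EIF4G1 held 143 codons, 8.9% of the length of the MANE Select CDS, that for EIF4G3 held 217 codons (13.2%), EIF5 146 (33.8%) and EIF3M 191 (50.9%), and in all 4 the annotated CDS is incomplete at its 3′ end. The transcripts counted for EIF3J (210 codons, 81.1%), EIF1AX (117, 80.7%) and EIF4H (229, 92%) were shorter than MANE Select without such a mark. Values cover the counted codons only. Reads could not be told apart between near-identical genes: 98.6% of the 28-base stretches of the EIF3C CDS also occur in EIF3CL, 64.2% of those of EIF2S3 in EIF2S3B, and 78.3% of those of EIF5AL1 in EIF5A, the elongation factor. EIF1 and EIF1B, and EIF4A1 and EIF4A2, shared no such stretch.

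In vehicle-treated cells at 60 min, the factors were among the more heavily translated mRNAs, and 37 of 40 lay above the median of the 10999 transcripts with at least 10 reads. The near-identical copies EIF3CL and EIF2S3B are counted among the 37. Levels are given as footprints per kilobase of CDS relative to all CDS reads of the library (RPKM), which allows genes to be compared. The median over the factors was 176 RPKM, against 17.9 RPKM for those transcripts. Of the 39 neighbouring pairs in the order of levels, 29 had overlapping libraries, so most single steps in that order were within the replicate spread.

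**Figure D1:**
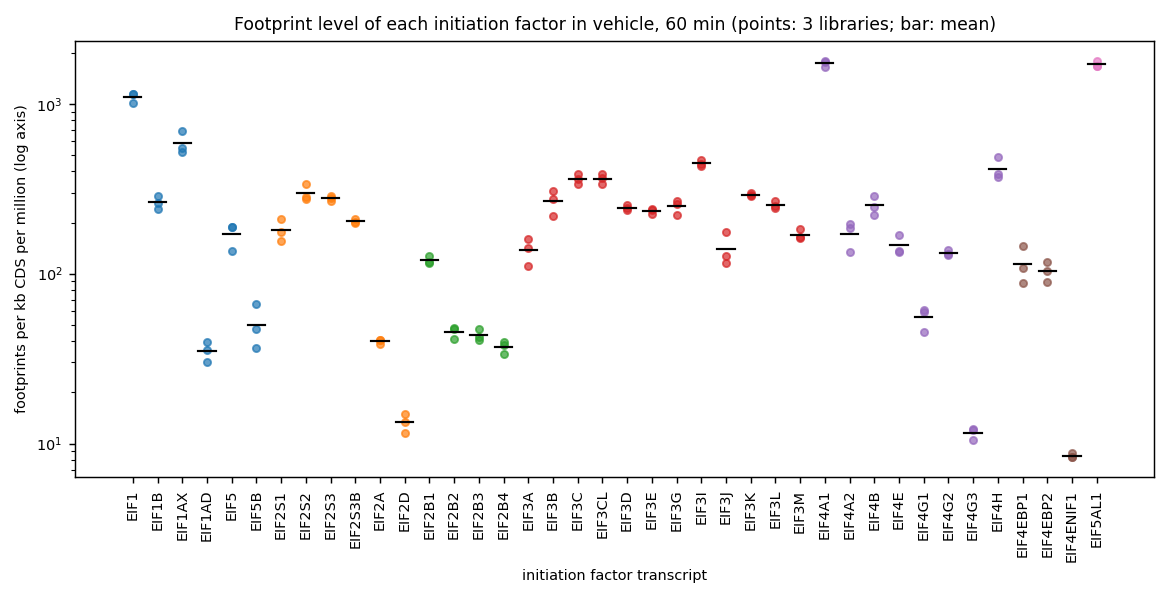
Footprint level (y axis, log scale, RPKM) of each of the 40 factors in vehicle at 60 min; points are the 3 libraries, bars their mean, colors the complexes. EIF4A1 (mean 1734) is at the top and EIF4ENIF1 (mean 8.50) at the bottom.

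EIF4A1, the RNA helicase of eIF4F, had the highest level, with 1647, 1758 and 1796 RPKM in the 3 libraries (1734 ± 77.3, SD, n = 3). EIF5AL1 came next at 1710 ± 66.0 RPKM, a level that can include reads from EIF5A. EIF5AL1 is in the set by its symbol alone, and it shares 78.3% of its 28-base stretches with that elongation factor. EIF1 followed at 1094 ± 76.7 RPKM, apart from EIF1B at 262 ± 21.9 RPKM, whose libraries did not overlap those of EIF1. The lowest were EIF2D, which can deliver initiator tRNA without eIF2, at 13.3 ± 1.70 RPKM, the EIF4G3 fragment at 11.6 ± 0.947 RPKM and EIF4ENIF1, a transporter and inhibitor of EIF4E, at 8.50 ± 0.303 RPKM.

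Within the complexes, footprints per length were more even for eIF2 than for eIF2B or eIF4F. For eIF2, the highest subunit, EIF2S2 (299 ± 32.4 RPKM), exceeded the lowest, EIF2S1 (181 ± 26.6 RPKM), by 1.65 times in vehicle at 60 min. For eIF2B, EIF2B1 (120 ± 6.32 RPKM) exceeded EIF2B4 (37.2 ± 3.12 RPKM) by 3.22 times. EIF2B1 encodes the α subunit, which joins eIF2B as a homodimer. For eIF4F, EIF4A1 exceeded the EIF4G1 fragment (55.4 ± 8.66 RPKM) by 31.3 times and EIF4E lay between them at 147 ± 20.1 RPKM. That ratio was not stable between vehicle groups, at 23.7 times at 10 min and 13.6 times in the second study, where the EIF4G1 fragment stood at 109 RPKM. The 11 eIF3 transcripts, with EIF3CL left out, spanned 3.24 times, from EIF3A (138 ± 24.8 RPKM) to EIF3I (448 ± 20.2 RPKM). The subunits EIF3F, EIF3H and EIF2B5 were not analysed here, so these spans do not cover the whole complexes.

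The second study allowed the footprints to be set beside mRNA. Across the same 11 eIF3 transcripts in vehicle, mRNA levels spanned 10.1 times (8.80 and 11.9 in the 2 libraries), and footprint levels spanned 2.76 times (2.67 and 2.86). EIF3A, the largest subunit and core of the scaffold, had 44.4 and 30.9 RPKM in mRNA against 166 and 171 RPKM in footprints. EIF3I, a β-propeller subunit, had 391 and 368 RPKM in mRNA against 442 and 418 RPKM in footprints. The eIF3 footprints were thus spread over a narrower range than the eIF3 mRNAs in both pairs of libraries. With 1.5 µM PF-06446846 the mRNA span was 7.99 times and the footprint span 2.82 times. The same held for eIF2, with 2.94 times in mRNA and 1.91 times in footprints in vehicle. For eIF2B the spans were closer, 4.26 times in mRNA and 3.58 times in footprints, and so were those of eIF4F, 15.3 times in mRNA (EIF4E to EIF4A1) and 13.6 times in footprints (the EIF4G1 fragment to EIF4A1). The SD over subunits as a share of their mean went the other way for eIF2B (68.3% in mRNA, 72.7% in footprints) and eIF4F (122% and 135%). For eIF3 (61.7% and 33.7%) and eIF2 (49.9% and 30.9%) that share was also smaller in footprints. The eIF4F values rest in part on the EIF4G1 fragment. Without it, the ratio of EIF4A1 to EIF4E in vehicle was smaller in footprints (1481 to 144 RPKM) than in mRNA (1204 to 78.8 RPKM). RPKM from these mRNA-seq libraries also depends on how evenly fragments cover each CDS, which was not tested.

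Footprint-to-mRNA ratios were computed for each culture on a log2 scale, with the median of 9230 transcripts that had at least 50 reads in all 8 libraries set to 0. All 40 factors passed, and 28 lay above that median in vehicle and 12 below it, with a median of 0.35. The near-identical copies EIF3CL (0.18) and EIF2S3B (1.23) are counted among the 28. The spread over the factors (SD 0.94) compares with 1.17 over all those transcripts. The replicates differed by a median of 0.14, and by at most 1.03.

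**Figure D2:**
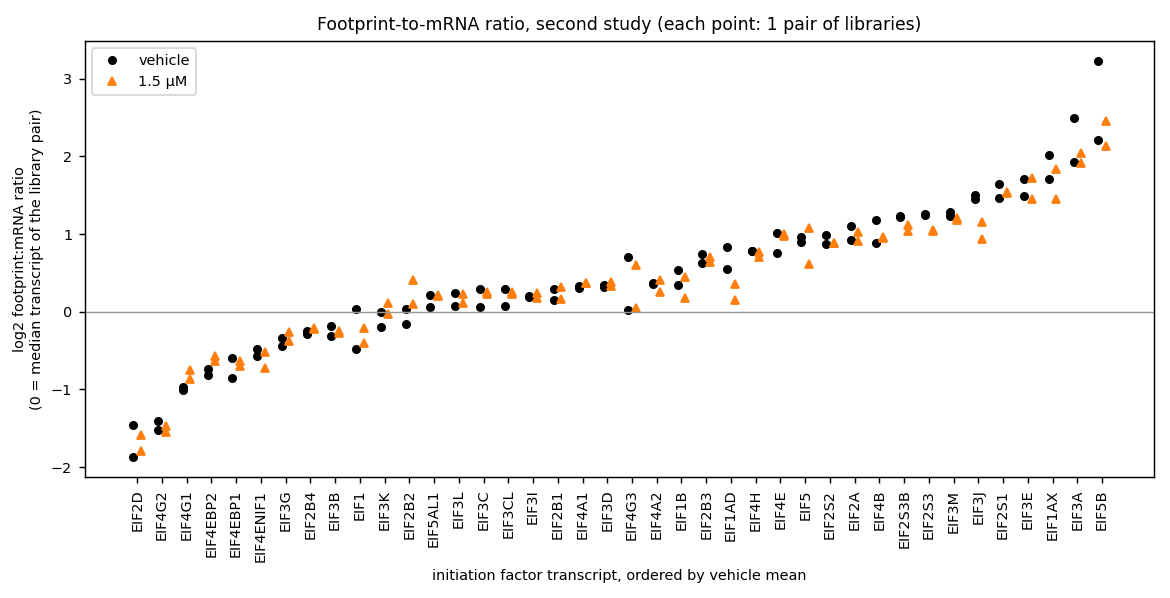
Log2 footprint-to-mRNA ratio (y axis; 0 is the median transcript of that pair of libraries) of the 40 factors in the second study, ordered by the vehicle mean. Each circle (vehicle) and triangle (1.5 µM) is 1 culture; the order runs from EIF2D (-1.67) to EIF5B (2.72).

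EIF5B, the GTPase that joins the subunits, had the highest ratio, 2.20 and 3.23 in the vehicle cultures (percentile 99.3 of transcripts). EIF3A followed with 1.92 and 2.49, and EIF1AX, the X-linked eIF1A gene, with 1.71 and 2.02. The upper end thus held factors of several complexes, and the ranges of EIF5B and EIF3A overlapped. EIF2D was lowest at -1.87 and -1.46 (percentile 7.74), then EIF4G2 at -1.53 and -1.41, then the EIF4G1 fragment at -0.96 and -1.01. EIF4G2, also called DAP5, is the eIF4G relative that lacks the EIF4E-binding part and starts at the GTG printed above. All 3 eIF2 subunits lay high, with vehicle means of 1.55 for EIF2S1, 0.93 for EIF2S2 and 1.25 for EIF2S3. EIF4EBP1 (-0.73) and EIF4EBP2 (-0.78), the inhibitors of EIF4E, lay below the median, and EIF4E itself lay above it (0.89).

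The comparison of 1.5 µM PF-06446846 with vehicle at 10 min asks which mRNAs lose or gain ribosomes soon after the compound is added. No factor passed an adjusted p of 0.1 in edgeR without a replicate term (0 of 40 tested), where 94 of 11045 transcripts did (0.851%). At an unadjusted p under 0.05 there were 6 factors, against 17.7% of all transcripts. DESeq2 called 2 factors and 4.31% of all transcripts. With a term for the replicate number (the replicate block), edgeR called EIF3J and EIF5B and many more transcripts, as given in the closing section. The log2 fold changes of the 40 factors ran from -0.45 to 0.22 with a median of 0.0047, and the median of all transcripts was 0.0055. All 40 intervals (95%) lay within 1 log2 unit of no change, the lowest bound being -0.70 and the highest 0.59, and so did 91.3% of the intervals of all transcripts. CPM (counts scaled to library size) are shares of a library, so a change common to all mRNAs would not be seen, and in such bulk lysates fewer cells and less RNA per cell cannot be told apart.

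**Figure D3:**
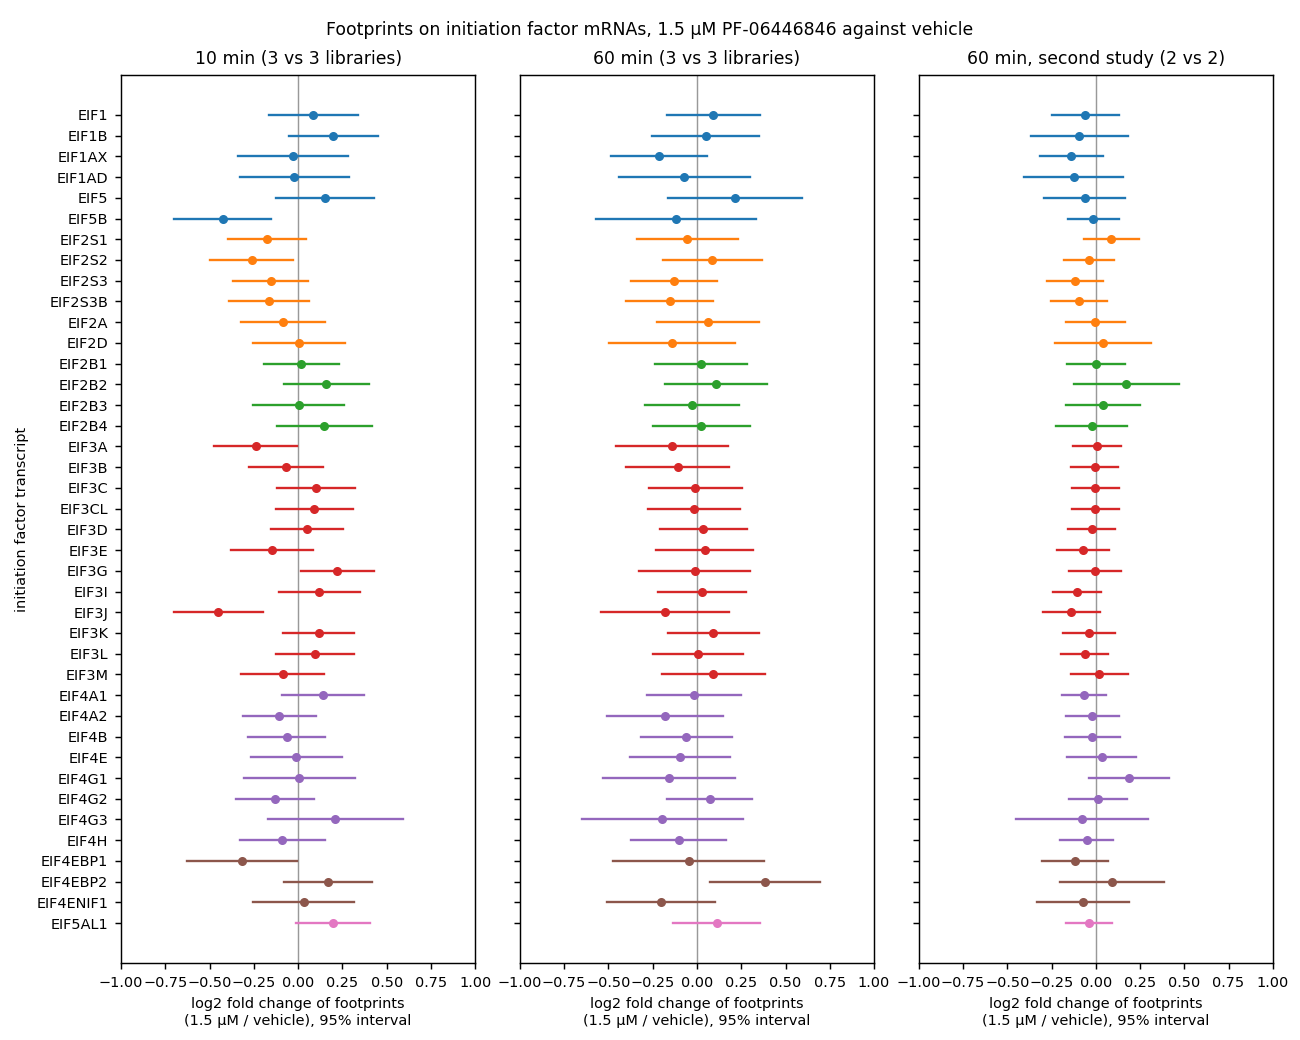
Log2 fold change of CDS footprints (x axis, 1.5 µM over vehicle) with its 95% interval from edgeR for each of the 40 factors, colored by complex, at 10 min, at 60 min and in the second study. EIF3J (-0.45) and EIF5B (-0.43) at 10 min lie farthest to the left, and none passed an adjusted p of 0.1 in this fit, which has no replicate term.

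EIF3J, the loosely bound eIF3 subunit that acts at the decoding site, had the largest difference. Its CPM was 68.5, 70.5 and 77.8 with 1.5 µM, and 90.5, 112 and 94.0 with vehicle. All treated libraries were below all vehicle libraries. This held for 4 of the 40 factors, and in 3 others the treated libraries were all above. The share over all transcripts was not counted. The log2 fold change of EIF3J was -0.45 ± 0.12 (SE; edgeR adjusted p = 0.126). DESeq2 gave an adjusted p of 0.0311, and counting only codons after 50 gave -0.62 with an edgeR adjusted p of 0.0425.

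EIF5B was next. Its CPM was 139, 151 and 166 with 1.5 µM against 209, 235 and 168 with vehicle. The groups were separate, but the highest treated and the lowest vehicle library lay close together. The log2 fold change was -0.43 ± 0.13 (SE; edgeR adjusted p = 0.142; DESeq2 0.0584). Without vehicle replicate 3 at 10 min, edgeR called 4 of the 40 factors (EIF2S2, EIF3A, EIF3J and EIF5B, all lower). It then called 1656 transcripts in all, a larger share than among the factors.

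Over all 40 factors, near-identical copies included, 21 values were positive and 19 negative. The 4 eIF2B transcripts lay between 0.0028 for EIF2B3 and 0.16 for EIF2B2, and the signs of the smallest depended on the scaling, since in RPKM EIF2B1 (122 against 125) and EIF2B3 (40.2 against 41.6) were lower with 1.5 µM. The 6 transcripts of eIF2 and its relatives EIF2A and EIF2D lay between -0.26 and 0.0066. EIF2S2, the eIF2 β subunit that contacts eIF5 and eIF2B, was lowest of these at -0.26 ± 0.11 (SE; adjusted p = 0.244), with 281, 301 and 297 CPM against 342, 402 and 311. Without vehicle replicate 2 at 10 min it stood at -0.16. Among the 12 eIF3 transcripts EIF3G, an RNA-binding subunit, was highest at 0.22 ± 0.10 (SE; adjusted p = 0.256). EIF4EBP1 stood at -0.32 ± 0.14 (SE; adjusted p = 0.275), with 49.9, 50.7 and 43.6 CPM against 48.5, 72.8 and 58.4, and the groups overlapped. Without that same vehicle library it stood at -0.15. EIF5AL1 stood at 0.20 and EIF5A, with which it shares reads, at 0.22 ± 0.10 (SE; adjusted p = 0.261).

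At 60 min in the first study, edgeR called 0 of 40 factors and 8 of 11021 transcripts (0.0726%). A single factor, EIF4EBP2, was under an unadjusted p of 0.05, against 2.20% of all transcripts, and DESeq2 called none. EIF4EBP2 had 50.6, 42.5 and 52.8 CPM with 1.5 µM against 41.5, 33.1 and 37.9 with vehicle. The treated libraries were all higher in CPM, by 0.38 ± 0.14 (log2, SE), with an adjusted p of 1.00, but in RPKM, which takes library totals without TMM scaling, 1.5 µM replicate 2 (114) lay below vehicle replicate 1 (118). The next in size were EIF1AX at -0.22 ± 0.13, the EIF5 fragment at 0.21 ± 0.17 and EIF4ENIF1 at -0.20 ± 0.14, each with an adjusted p of 1.00. EIF1AX had 172, 181 and 178 CPM with 1.5 µM against 236, 187 and 195 with vehicle. The EIF5 fragment had 72.2, 104 and 86.3 CPM against 58.1, 84.6 and 82.3. EIF4ENIF1 had 23.6, 21.9 and 19.97 CPM against 23.9, 25.2 and 26.3. The groups overlapped for the EIF5 fragment, and for EIF1AX and EIF4ENIF1 the treated libraries were all lower in CPM, by a narrow margin between the nearest libraries. Over the 40 factors they were all lower in 4 and all higher in 1, and the share over all transcripts was not counted. Without vehicle replicate 1 EIF1AX stood at -0.11 and the EIF5 fragment at 0.0634, and without 1.5 µM replicate 1 the EIF5 fragment stood at 0.34. EIF3J (-0.18 ± 0.17) and EIF5B (-0.12 ± 0.21) had negative values, with overlapping groups, and EIF3J was at -0.0057 without vehicle replicate 1. Between libraries of the same number, which pair at this time, EIF5B was lower with 1.5 µM in 3 of 3 pairs (215 against 235, 130 against 137 and 157 against 175 CPM) and EIF3J in 2 of 3. In CPM, EIF1AX and EIF4ENIF1 were also lower in 3 of 3 pairs, and EIF4EBP2 and the EIF5 fragment were higher in 3 of 3. These 4 were named for the size of their differences in the same libraries, so the pairs are no separate test of them. The share of all transcripts with the same sign in every pair was not counted. With the replicate block the values were -0.12 for EIF5B (edgeR adjusted p = 0.787) and -0.18 for EIF3J (0.724). The intervals of all 40 factors ran between -0.65 and 0.70. With the replicate block, edgeR called 51 transcripts and still 0 of the 40.

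The second study repeated the 60 min comparison with 2 libraries in each group, again with 0 of 40 factors called (0.115% of all transcripts, 13 of 11263) and 0 under an unadjusted p of 0.05 (2.97% of all transcripts) or called by DESeq2. With the replicate block 129 transcripts and 0 factors were called. Its intervals were the narrowest, from -0.45 to 0.47 over the factors. EIF3J had 88.8 and 89.6 CPM with 1.5 µM against 97.0 and 99.4 with vehicle, a log2 fold change of -0.14 ± 0.07 (SE; adjusted p = 0.999). EIF5B had 240 and 225 CPM against 236 and 233, a log2 fold change of -0.01 ± 0.07 (SE). EIF4EBP2 had 28.2 and 35.1 CPM against 27.4 and 32.5, and these groups overlapped.

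In mRNA of the second study, edgeR called 0 of 40 factors and 0% of 11812 transcripts. A single factor was under an unadjusted p of 0.05 (1.93% of all transcripts), and DESeq2 called no factor. That factor was EIF3J, with 47.7 and 41.5 CPM with 1.5 µM against 36.4 and 35.3 with vehicle, a log2 fold change of 0.32 ± 0.13 (SE; adjusted p = 0.999). In the test of translational efficiency, an interaction of library type and treatment over the 8 libraries, edgeR called 0 of 40 factors and 4 of 11799 transcripts (0.0339%), and DESeq2 called no factor. With the culture as a replicate block 13 transcripts and 0 factors were called. EIF3J alone was under an unadjusted p of 0.05 (3.03% of all transcripts), at -0.46 ± 0.13 (SE; adjusted p = 1.00). Its footprint-to-mRNA ratio was 1.45 and 1.50 with vehicle and 0.93 and 1.15 with 1.5 µM, without overlap. How many other transcripts had no overlap was not counted. EIF5B stood at -0.36 ± 0.34 (SE), and its vehicle mRNA libraries, at 52.5 and 24.8 CPM, lay on both sides of a treated one (44.9 and 52.7). Leaving out vehicle mRNA replicate 4 gave -0.99 for EIF5B and called EIF3A and EIF5B, and leaving out vehicle mRNA replicate 5 gave 0.08 for EIF5B.

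At 0.3 µM, edgeR and DESeq2 called 0 of 40 factors at 10 min (0% of 11131 transcripts) and at 60 min (0% of 11141), and no factor was under an unadjusted p of 0.05, against 0.934% and 0.871% of all transcripts. These comparisons use the same vehicle libraries as those at 1.5 µM. EIF3J stood at -0.05 ± 0.13 (SE) and -0.10 ± 0.15, and EIF5B at -0.10 ± 0.15 and -0.11 ± 0.18. Between the vehicle groups at 60 and 10 min, edgeR called 0 of 40 factors (0% of 11098 transcripts) and DESeq2 none. Only EIF4EBP1 was under an unadjusted p of 0.05 in edgeR (6.93% of all transcripts), with 52.0, 33.6 and 39.97 CPM at 60 min against 48.0, 71.6 and 57.5 at 10 min, a log2 fold change of -0.51 ± 0.18 (SE; adjusted p = 0.712). Leaving out 1 library moved it to between -0.68 and -0.33, the latter without 10 min replicate 2. The test of whether the effect of 1.5 µM differed between 60 and 10 min called 0 of 40 factors and 0% of 11167 transcripts in edgeR, none in DESeq2, and none of the factors at an unadjusted p under 0.05 in edgeR (4.53% of all). That difference was 0.26 ± 0.21 (SE) for EIF3J and 0.30 ± 0.27 for EIF5B.

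The other genes of initiation and its control were taken from a list of 42, all counted and tested. At 10 min with 1.5 µM, 1 fell and 0 rose (0.851% of all transcripts called), and 9 of the 42 were at an unadjusted p under 0.05 (17.7% of all). The called one was EIF2AK2, the double-stranded RNA-activated eIF2α kinase PKR, at -0.55 ± 0.13 (SE; adjusted p = 0.0977). PABPC1, the poly(A)-binding protein that contacts EIF4G, stood at 0.69 ± 0.21 (SE; adjusted p = 0.15). The transcript counted for PABPC1 held few reads, with a mean of 110 in the comparison of 0.3 µM with vehicle at 10 min, where PABPC4 had 3219. ATF4, the transcription factor whose translation rises when eIF2α is phosphorylated, stood at -0.31 ± 0.13 (SE; adjusted p = 0.247) at 10 min, at -0.21 ± 0.17 at 60 min and at -0.01 ± 0.10 in second study footprints. TRIB3 and DDIT3, which act downstream of ATF4, stood at 0.31 ± 0.14 (SE; adjusted p = 0.271) and -0.38 ± 0.34 (SE; adjusted p = 0.577) at 10 min, and at 0.10 ± 0.15 and 0.62 ± 0.34 at 60 min, where DDIT3 had a mean of 21.8 reads. None of these values passed the test, and they lay in both directions. In the other 8 comparisons 0 of the 42 were called by edgeR, with 0 to 7 of them at an unadjusted p under 0.05, where 0.871% to 6.93% of all transcripts were. The 7 were between the vehicle groups (6.93% of all) and 5 in the difference between times (4.53%).

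Where footprints lie along a CDS was measured apart from how many there are. For the 29 factors of at least 200 codons with at least 100 reads in every library compared, density over codons 2 to 50 was expressed as a multiple of the mean of the CDS. In vehicle at 60 min its median was 0.63 for the factors and 0.61 for 5662 transcripts. At 10 min, all 1.5 µM libraries exceeded all vehicle libraries in 12 of 29 factors, and in 23.2% of 5884 transcripts. With EIF3CL and EIF2S3B left out as near-identical copies it was 10 of 27. In the opposite direction there was 1 factor, EIF2B1, and 3.43% of transcripts. The median ratio of treated to vehicle means was 1.23 for the factors and 1.17 for all transcripts, close to each other. With 3 libraries against 3, an exact two-sided permutation test cannot give a p below 0.1 for a single factor.

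**Figure D4:**
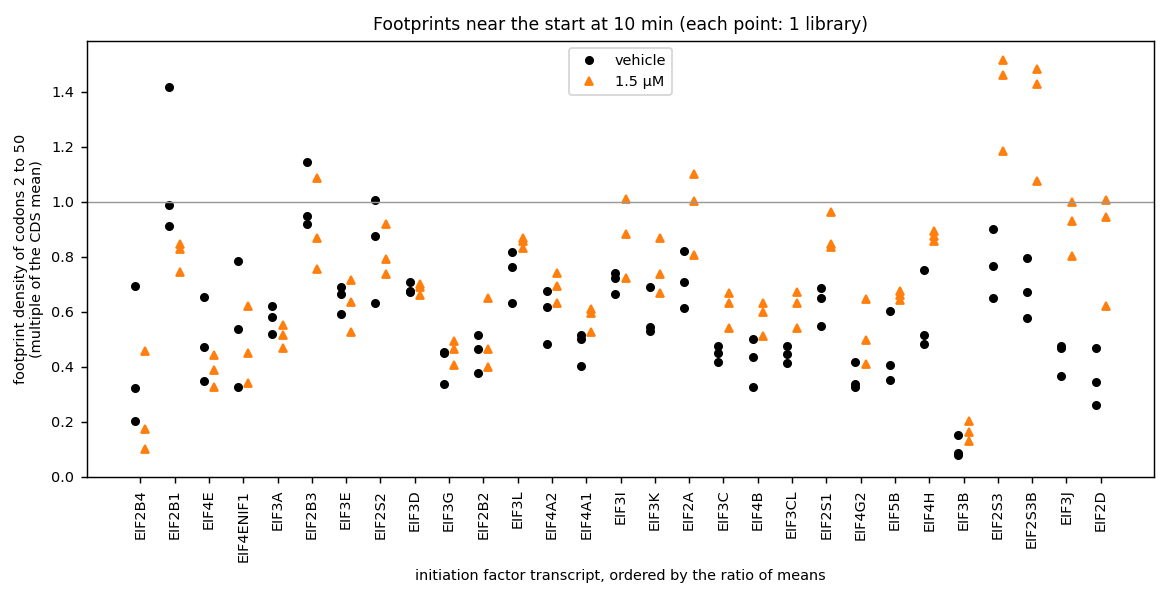
Footprint density over codons 2 to 50 (y axis, multiple of the CDS mean) of 29 factors at 10 min, ordered by the ratio of the means; circles are the 3 vehicle libraries and triangles the 3 libraries with 1.5 µM. In EIF3J and EIF2D at the right the groups are separate, with ratios of 2.08 and 2.39.

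EIF2D and EIF3J had the largest ratios among the 12. For EIF3J, density was 1.00, 0.93 and 0.80 with 1.5 µM against 0.47, 0.37 and 0.47 with vehicle, a ratio of 2.08. The early codons of EIF3J at 10 min thus held about the CDS mean with 1.5 µM and less than that with vehicle, while its whole-CDS count was lower. The vehicle mean of EIF3J itself moved, from 0.44 at 10 min to 0.76 at 60 min and 0.72 in the second study. With 1.5 µM the means were 0.91, 0.70 and 0.70. For EIF2D, density was 0.62, 0.94 and 1.01 against 0.35, 0.47 and 0.26. EIF2S3 and EIF2S3B, which share reads, had ratios of 1.79 and 1.95. The remaining 8 were EIF2S1, EIF3C, EIF3CL, EIF3L, EIF4A1, EIF4B, EIF4H and EIF5B, with ratios from 1.16 for EIF3L to 1.50 for EIF4H.

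At 60 min, 0 of 29 factors were higher without overlap (6% of transcripts) and 2 were lower, EIF4G2 and EIF2D (3.87% of transcripts). Compared within same-numbered pairs, 3 factors were higher in 3 of 3 pairs (EIF2S3, EIF3E and EIF4A2; 15.1% of transcripts) and 6 lower (EIF4G2, EIF2D, EIF4B, EIF3G, EIF3B and EIF2B2; 13.6%). In the second study 6 of 29 were higher (19.0%; 5 of 27 without the copies) and 1 lower (13.4%). EIF2D was the lower one there, at 0.33 and 0.45 with 1.5 µM against 1.03 and 1.07 with vehicle. At 60 min in the first study it stood at 0.53, 0.51 and 0.46 against 0.72, 0.59 and 0.58. The vehicle mean of EIF2D itself moved, from 0.36 at 10 min to 0.63 at 60 min and 1.05 in the second study, and each of these EIF2D values rests on 5 to 28 reads in the window. At 0.3 µM, 0 of 29 were separate in either direction at either time, where transcripts were higher in 3.82% at 10 min and 4.38% at 60 min and lower in 2.75% and 2.69%. Within pairs at 0.3 µM, 4 factors were higher (10.4% of transcripts) and 2 lower (8.23%) at 10 min, and 1 higher (12.3%) and 1 lower (9.36%) at 60 min.

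Dmax is the largest excess of the cumulative footprint fraction, read from the start codon, with compound over vehicle. Its Z-score divides it by the root mean square of transcripts with a like read count, and it has no p-value. At 10 min, 2 of 40 factors reached a Z-score of 2 (3.48% of 11422 transcripts), at 60 min 0 of 40 (2.67% of 11442) and in the second study 0 of 40 (2.34% of 11405). For EIF1B, Dmax was 0.184 and was reached at codon 30 (Z-score 2.40). Up to that codon lay 36.9%, 38.1% and 31.0% of its footprints with 1.5 µM at 10 min, against 17.2%, 15.5% and 18.8% with vehicle. At 60 min the shares were 29.1%, 33.4% and 26.04% with 1.5 µM and 22.5%, 33.5% and 19.7% with vehicle, and the groups overlapped. For EIF4EBP1, Dmax was 0.168 and was reached at codon 65 (Z-score 2.12). Up to codon 65 lay 65.3%, 56.5% and 45.0% of its footprints with 1.5 µM at 10 min, against 40.3%, 35.8% and 39.8% with vehicle. The treated libraries were all higher but far apart. Here and for EIF1B, the factor and the codon were picked on these same 10 min libraries, so their separation there is no separate test. At 60 min the shares up to codon 65 were 48.4%, 58.8% and 51.4% with 1.5 µM and 47.0%, 52.5% and 49.4% with vehicle, and the groups overlapped. In the second study they were 40.5% and 39.3% with 1.5 µM and 40.4% and 42.5% with vehicle. Without 1.5 µM replicate 1 at 10 min, EIF4EBP1 was below 2 and EIF1AX reached it. EIF1, the paralog of EIF1B, was just under the threshold with a Z-score of 1.91 at codon 28. EIF3J had a Z-score of 1.51 at codon 51.

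In some factors a single codon held many times the average number of footprints. The highest codon of each factor was placed on the pooled vehicle libraries at 60 min, with the first and last 15 codons of the CDS left out, and was then measured in the other 19 ribo-seq libraries. The windows of the 6 highest are shown so that the codon and its surroundings can be read, with the codon assigned to the ribosomal P site in capitals.
EIF4G2 codon 56: cctgcacgaagcACTagacgagatgac
EIF2D codon 154: gccatgtccacaGCTgagatgctcacg
EIF2B4 codon 460: ctagatgaccctGATgatctgcaatgt
EIF4G3 codon 49: aatcagcacatcATGatggttaaccat
EIF2B3 codon 43: ccattgaacctgCTTgagcgtgttgga
EIF5B codon 1027: gtgatgttggaaCATgaccctcagtat

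On GRCh38 they lie in coding exons at chr11:10805975-10806001 (EIF4G2, - strand, exon 4), chr1:206605456-206605482 (EIF2D, -, exon 5), chr2:27364577-27364721 (EIF2B4, -, across exons 12 and 13), chr1:20981099-20981125 (EIF4G3, -, exon 6), chr1:44981028-44981054 (EIF2B3, -, exon 2) and chr2:99394563-99394722 (EIF5B, +, across exons 21 and 22).

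**Figure D5:**
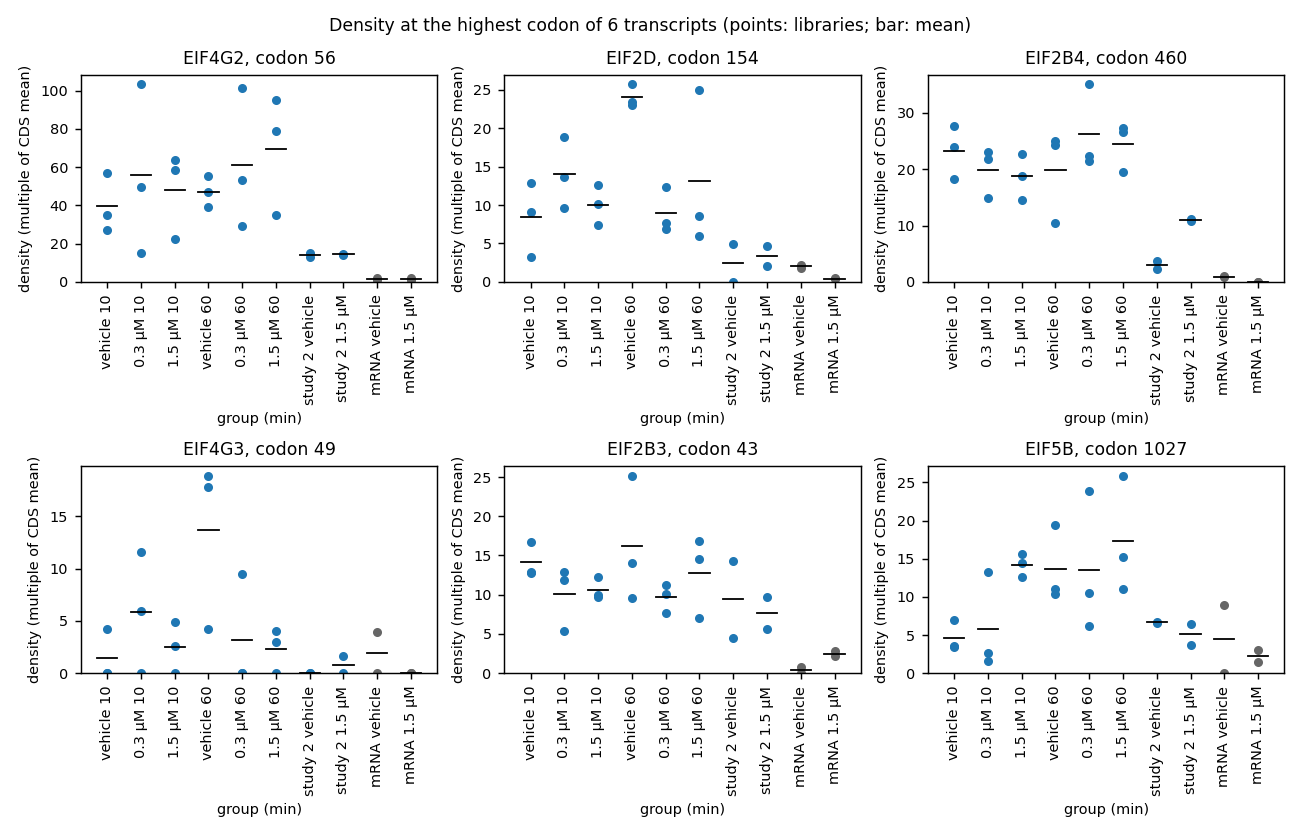
Footprint density at the highest codon of 6 factors (y axis, multiple of the CDS mean, own scale in each panel) by group, with mRNA-seq in gray; points are libraries and bars means. EIF4G2 codon 56 was above 5 in all 19 libraries not used to place it, and its mRNA-seq values were 1.85 or less.

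EIF4G2 codon 56 stood out, with 624 pooled footprints and 49.4 times the mean of the CDS in the libraries that placed it. In the 19 other ribo-seq libraries it ranged from 13.1 to 103 times the mean, and it was the highest codon of the CDS in 13 of them. With 1.5 µM at 10 min it was at 22.4, 63.6 and 58.8, and with vehicle at 35.2, 27.3 and 57.2, so the groups overlapped. In mRNA-seq the same codon was at 0.89 to 1.85 times the mean, so the excess was in footprints. The second study had lower values, 13.1 and 14.9 with vehicle and 14.6 and 14.3 with 1.5 µM.

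EIF2B4 codon 460 was the highest codon in 15 of the 19 other libraries and EIF2B3 codon 43 in 13 of them. EIF2B4 stood at 23.3 ± 4.76 (SD, n = 3) in vehicle at 10 min and 18.7 ± 4.05 with 1.5 µM, and at 2.35 and 3.65 with vehicle against 11.2 and 10.9 with 1.5 µM in the second study, where 3 to 13 reads lay on it. EIF2B3 stood at 14.1 ± 2.24 and 10.7 ± 1.40 in the same 10 min groups. EIF5B codon 1027 was highest in 6 of 19 libraries. At 10 min it stood at 15.6, 14.5 and 12.6 with 1.5 µM against 6.97, 3.60 and 3.44 with vehicle, without overlap, on 4 to 21 reads a library, and at 60 min the groups overlapped. EIF2D codon 154 was highest in 2 of 19 and EIF4G3 codon 49, placed on 17 reads, in 1.

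In 4 of the 6 windows, those of EIF2D, EIF2B4, EIF2B3 and EIF5B, the codon after the capitals encodes aspartate or glutamate (GAT, GAC, GAA or GAG). This feature was chosen after the windows were seen. Over the 37 factors with a matching annotated CDS (EIF3CL and EIF2S3B left out as copies), the codon after the highest codon was an aspartate codon in 13 and a glutamate codon in 5, or 48.6% together. Of all codons searched in these factors 15.4% were of these kinds. Over 7985 transcripts the codon after the highest one was of these kinds in 43.2%, against 12.5% of all codons, and the difference between factors and transcripts was not tested. At the highest codon itself the share was 8.11% in the factors and 11.3% in the transcripts.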

How the data were processed

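Ribo-seq and mRNA-seq were made from Huh7 cells that met cycloheximide at harvest, in the wash and the lysis buffer, with no pretreatment of the culture. Per the study's methods, the authors trimmed adapters, removed rRNA reads, aligned the rest with Bowtie 1.1.2 to 1 isoform per gene chosen with kallisto 0.42.5 (GRCh38), and deposited raw read counts per codon, placed at the P site, without normalization (versions and build from the submitters' processing notes). Reads with several equally good sites could be counted at each. A further deposited file of scripts was not used here. GENCODE 44 named 11270 of 12325 transcripts, and initiation factors among the other 1055 were not analysed here. The check of the compound's effect on its target is not reported here. The members and gene lists were chosen with earlier results of these data known.

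Codon counts were summed over each CDS and tested with edgeR 4.0.16 (R 4.3.3; filterByExpr, TMM, glmQLFit, glmQLFTest), fitting the groups of each comparison alone and without a replicate term, at a Benjamini-Hochberg adjusted p of 0.1 over all transcripts. Intervals are 95% t intervals from that fit. All 40 factors passed the filter on low counts, with at least 51 reads in every library. DESeq2 1.42.0, its size factors, no filter, a threshold of 0.05, the replicate block, other codon ranges and leaving out each library were alternatives. The fits were tested on simulated data: of 200 transcripts changed by 1 log2 unit, 97.5% were recovered in the design of 1.5 µM against vehicle at 10 min (10980 transcripts), 76% in that of translational efficiency (11721) and 71%, the lowest, in that of the difference between times (11116). The changed transcripts were drawn above a minimum mean read count, and libraries were simulated without pairing. All differences of the factors were smaller than 1 log2 unit. Smaller changes were not simulated, so these shares do not give the recovery of differences of that size. False calls made up 7.92% to 17% of calls over the 9 designs, and 17% for the difference between times, 16.7% for second study ribo-seq and 14.6% for translational efficiency exceeded the 10% set by the threshold most. Dmax used at least 10 reads in each group and bins of 300 transcripts. RPKM, shares and figures were made in Python 3.11.15 (numpy 2.4.6, pandas 2.3.3, scipy 1.17.1, matplotlib 3.10.9). Sequences are those of GENCODE transcripts.

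Replicates are called biological by the study, and p-values measure the spread between these libraries. No 2 replicates agreed within counting noise. After the group means were taken off, libraries with the same number correlated by 0.406 to 0.532 for 1.5 µM and vehicle at 60 min, 0.431 to 0.552 for 0.3 µM and vehicle at 60 min and 0.154 to 0.531 for 0.3 µM and vehicle at 10 min, so these numbers were taken to pair the libraries. For 1.5 µM and vehicle at 10 min the correlations were 0.0564 to 0.235, and whether the numbers pair those libraries was not settled. In the second study, footprints and mRNA of a number come from the same culture. Every factor may be named. Full values went to those with the largest differences at 1.5 µM (the 4 largest at each time), with a Dmax Z-score of 2 or more, at the ends of each complex and of the footprint-to-mRNA ratio, and to the 6 highest codons.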

Additional observations from a re-analysis of the deposited data

How the results depend on the processing

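Across 9 comparisons, counts of called factors were 0 with edgeR, and they stayed at 0 under every alternative in 7 of them, the 0.3 µM, 60 min, vehicle, second study ribo-seq and mRNA-seq and time-difference comparisons. At 10 min with 1.5 µM, DESeq2 called 2 factors (519 transcripts in all, against 94), counting codons after 50 called 1 (195 in all), and leaving out 1 library called 0 to 4, the 4 without vehicle replicate 3. For translational efficiency, leaving out 1 library called 0 to 2, the 2 without vehicle mRNA replicate 4 (128 in all, against 4). In these fits a lone library is assumed to vary like the other groups. Factors with a Dmax Z-score of 2 or more numbered 2 to 4 when a library was left out at 10 min. The 4 (EIF1AD, EIF1AX, EIF1B and EIF4EBP1) came without vehicle replicate 2, where 359 of 11353 transcripts reached that score. A minimum of 50 reads gave 3 at 10 min, and 371 of 10578 transcripts. At 60 min leaving out a library gave 0 to 1. The 1 was EIF5, without 1.5 µM replicate 2 (336 of 11413 transcripts) or without vehicle replicate 1 (296 of 11377). In the second study leaving out a library left a single one in its group, so no count is given. Comparing density over codons 2 to 50 within same-numbered pairs, chosen after seeing the data, gave 3 factors higher and 6 lower at 60 min with 1.5 µM (0 and 2 without pairs), 4 and 2 at 10 min with 0.3 µM and 1 and 1 at 60 min with 0.3 µM (0 in each without pairs). The cause was not tested.

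With the replicate block, EIF3J (-0.45, edgeR adjusted p = 0.0145) and EIF5B (-0.42, edgeR adjusted p = 0.0206) were called at 10 min with 1.5 µM. That makes 2 of 40 factors, and 1196 of 11045 transcripts were called in all, a larger share than among the factors. There the correlations of same-numbered libraries were 0.209, 0.235 and 0.0564, against 0.207, 0.154 and 0.531 for 0.3 µM with the same vehicle libraries. Whether the numbers pair the 1.5 µM and vehicle libraries at 10 min was not settled, so both fits are given. The block changed no other count of factors; it moved the transcripts called from 8 to 51 at 60 min and from 13 to 129 in the second study.

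When a library was left out, EIF5B ran from -0.99 to 0.0835 (log2) in translational efficiency, from -0.0619 to 0.0331 in second study footprints, from -0.34 to 0.10 at 60 min (positive without 1.5 µM replicate 2, at 0.0324, and without vehicle replicate 1) and from -0.10 to 0.97 in mRNA, changing sign in each. EIF3J kept its sign in every alternative, from -0.51 to -0.35 at 10 min and from -0.56 to -0.35 in translational efficiency as libraries were left out, but from -0.29 to -0.0057 at 60 min, the latter without vehicle replicate 1. Depth limits the EIF4G3 fragment (51 reads in its lowest library) and EIF1AD (95 reads) most.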
